A study of Mus musculus with 10 samples.

Results

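The mitochondrial ribosomal protein genes described here are the mouse protein-coding genes whose symbol begins with Mrpl or Mrps followed by a number, and 78 of the 21779 protein-coding genes with coordinates in the RefSeq table (build GRCm38.p6, the assembly of mm10) met that rule. A gene was counted as having a peak in a library where the summit of a deposited XBP-1 peak lay between 5 kb before and 5 kb after the gene. The rule uses no measured value. XBP-1 occupancy had been measured in C57BL/6J mouse liver by chromatin immunoprecipitation and sequencing with an antibody to Xbp-1s, the spliced form of the factor. The 8 immunoprecipitated libraries fell into 4 groups of 2: wild-type fed mice (Fed), wild-type fasted mice (Fasted), wild-type controls of the knockout experiment (WT) and mice with a liver-specific Ern1 knockout (Ern1-LKO). Ern1 encodes the endoplasmic reticulum stress sensor that splices Xbp1 messenger RNA. The labels used here give no age, sex, length of fast, driver of the deletion, or feeding state of the WT and Ern1-LKO mice, and do not say whether the libraries of a group came from separate animals, so a p-value below measures only the spread between these libraries, which may be technical.

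Mitochondria carry their own ribosome, which makes the few subunits of the respiratory chain and ATP synthase that the mitochondrial genome encodes. All of its proteins are encoded in the nucleus, made in the cytosol and imported, so their genes are transcribed like any other nuclear gene. The large subunit forms the peptide bond and the exit tunnel, and the small subunit binds messenger RNA and reads the codons. Part of the proteins descend from bacterial ribosomal proteins and the others are found only in mitochondrial ribosomes. XBP-1 is a basic leucine zipper factor best known for genes of protein folding, secretion and lipid synthesis in the liver. Its textbook motifs share the letters CCACGT or the stress response element in which a CCAAT box and CCACG are set apart by a fixed spacing.

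The deposited lists differed widely in length, which bears on every count below. The Fed lists held 82975 and 47357 peaks, the Fasted lists 53973 and 19237, the WT lists 6258 and 30327, and the Ern1-LKO lists 698 and 30796. Kept tags ranged from 4.34M to 17.4M per library (M, 1000000 tags) and did not order the lists by length. Fed 1 had the most tags and the longest list, but Ern1-LKO 2, with the fewest tags, held 30796 peaks, and WT 1, with 14.1M, held 6258. One input library (39.7M tags) served as background for Fed and Fasted, and another (16.5M tags) for the knockout experiment, so groups were compared only within these pairs. Fasted 2, WT 1 and Ern1-LKO 1 stood apart from the other library of their group by the length of their list. Of the 6 hepatocyte genes looked up to check the tissue, Hnf4a, Cebpa and Cps1 each had a peak in 6 libraries, Apoa1 in 3, Alb in 2 and Ttr in 1. Over all genes, 19.0% had no peak in any library. These counts do not settle the tissue, since a list of bound sites does not measure how strongly a gene is expressed.

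Most mitochondrial ribosomal protein genes had an XBP-1 peak in several libraries, and so did most protein-coding genes. In the Fed libraries 77 and 67 of the 78 genes had a peak, and in the Fasted libraries 67 and 20. In the WT libraries 14 and 59 genes had one, and in the Ern1-LKO libraries 2 and 51. The same window held a peak for 76.5% and 71.5% of all protein-coding genes in the Fed libraries, 73.4% and 43.8% in the Fasted libraries, 19.7% and 65.3% in the WT libraries, and 3.6% and 62.7% in the Ern1-LKO libraries. Among the mitochondrial ribosomal protein genes the corresponding shares were 98.7% and 85.9%, 85.9% and 25.6%, 17.9% and 75.6%, and 2.56% and 65.4%. The genes thus lay above the share of all genes in Fed 1, Fed 2, Fasted 1, WT 2 and Ern1-LKO 2, and below it in Fasted 2, WT 1 and Ern1-LKO 1, the 3 libraries with the shortest lists. A median gene length of 7690.5 bases, against 17217 for all genes, gave these genes a shorter window in which to hold a peak.

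Counted over libraries, 1 gene had a peak in all 8 libraries, 6 genes in 7, 19 in 6, 23 in 5, 9 in 4, 9 in 3, 5 in 2 and 5 in 1. Among all protein-coding genes, 12.2% had a peak in 7 libraries, 28.3% in 6, 17.4% in 5 and 6.55% in 4. Another 4.44% had one in 3, 3.79% in 2 and 5.56% in 1. Mrps28 was the gene with a peak in all 8, where 2.65% of all genes reached that number. Mrpl35, which encodes a large subunit protein with a bacterial counterpart, was the only one of the 78 with no peak in any list, whereas 19.0% of all genes had none. The 5 genes with a peak in a single library were Mrpl16, Mrpl30, Mrps17, Mrpl46 and Mrps14, and for each of them that library was Fed 1, the library with the longest list. Their folds there were 7.92, 4.92, 4.24, 4.22 and 3.31. Here and below, a fold is the authors' fold enrichment, the ratio of tag pileup at the summit to the local background expected from the input. Peaks were ranked within a list by −log10 q and not by fold, and folds are not compared between lists as a change.

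**Figure D1:**
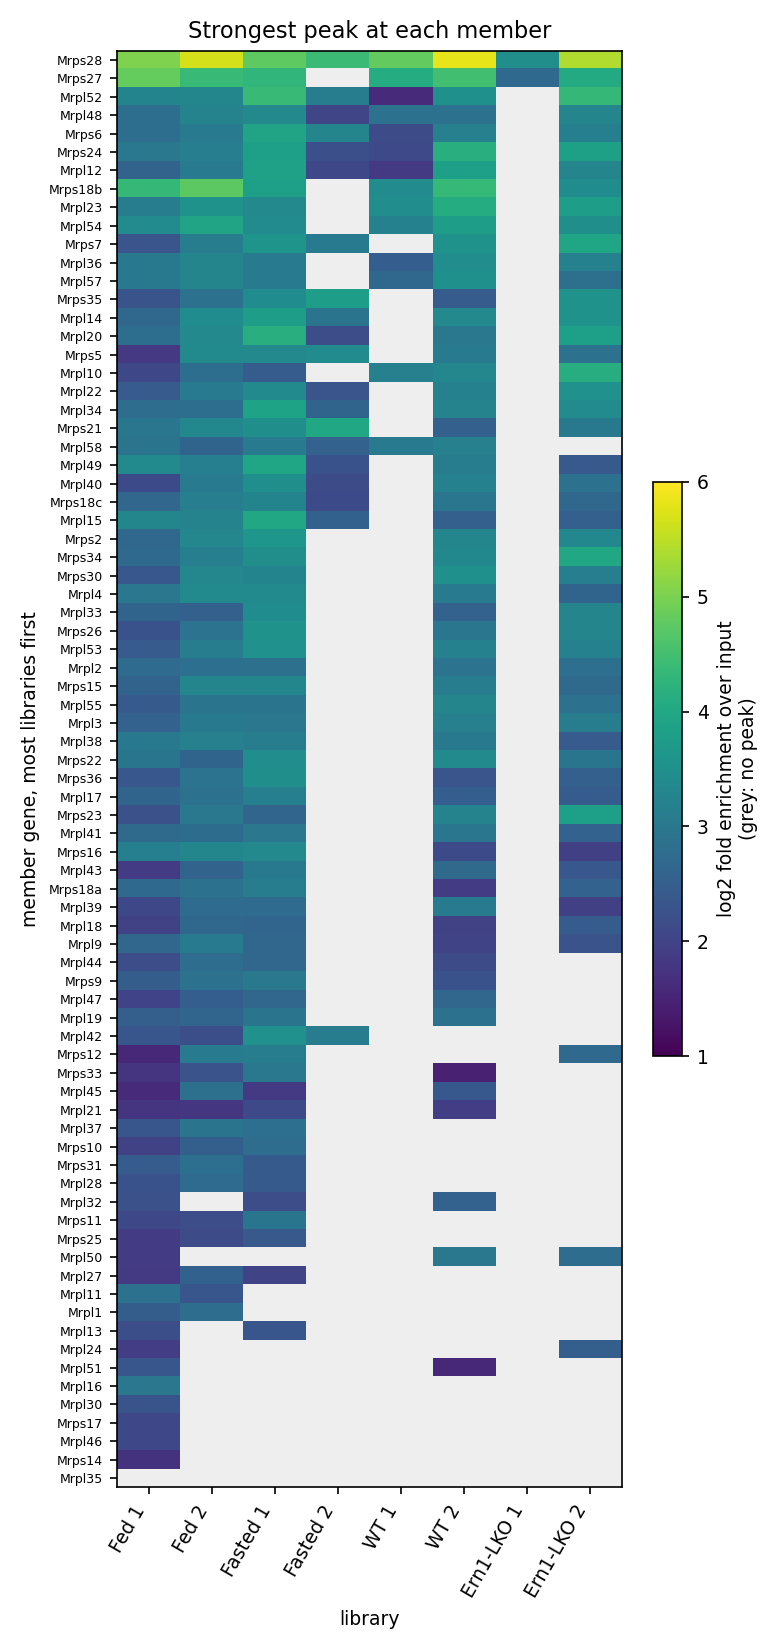
Fold enrichment of the strongest peak (highest −log10 q) at each of the 78 mitochondrial ribosomal protein genes (rows, ordered by number of libraries with a peak) in the 8 libraries (columns), as log2 of the authors' fold enrichment, with grey for no peak. Mrps28 in the top row is coloured in every column, Fed 1 is coloured for 77 of 78 genes, and Ern1-LKO 1 is coloured for Mrps28 and Mrps27 only.

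Most of the genes had a peak at their start in Fed 1, Fed 2, Fasted 1, WT 2 and Ern1-LKO 2. A RefSeq start was listed for 69 of the 78 genes, and none for Mrpl4, Mrpl13, Mrpl15, Mrpl19, Mrpl38, Mrpl54, Mrps28, Mrps34 and Mrps35. A summit lay within 1 kb of a start for 68 and 54 of the 69 genes in the Fed libraries and for 53 and 6 in the Fasted libraries. It did so for 9 and 48 genes in the WT libraries and for 0 and 37 in the Ern1-LKO libraries. Over all 17492 genes with a listed start, the shares were 63.9% and 57% (Fed), 59.2% and 27% (Fasted), 12% and 53.4% (WT), and 2.83% and 48.5% (Ern1-LKO). The mitochondrial ribosomal protein genes had 98.6% and 78.3%, 76.8% and 8.70%, 13.0% and 69.6%, and 0% and 53.6%. As in the wider window, Fasted 2 and Ern1-LKO 1 gave these genes a smaller share than all genes, while in WT 1 the shares were 13.0% and 12%. Counted over peaks and not over genes, 41.6% and 46.0% of the family's peaks lay within 1 kb of their own gene's start in the Fed libraries, 44.1% and 23.1% in the Fasted, 58.8% and 54% in the WT and 0% and 51.9% in the Ern1-LKO libraries. The other peaks lay at another gene's start, in the gene body, in the flanks or at the 9 genes without a listed start.

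Where a gene had a start peak, the summits sat close to the start itself. Their median position was 74.5 and 86 bases downstream of the start in the Fed libraries, 130 bases downstream in Fasted 1, 72 and 41 bases downstream in the WT libraries and 95 bases downstream in Ern1-LKO 2. In Fasted 2, with 6 such genes, the median position was -121.5 bases (upstream) and 3 of the 6 summits were downstream. For all genes the median position lay between 20 and 163 bases downstream in the 8 libraries. Within each list, the peaks at these starts ranked slightly lower than those at all starts in Fed 1, with a median percentile (by −log10 q, highest at 100) of 89.4 against 90.4. The percentiles were 79.9 against 83.3 in Fed 2, 79.5 against 85.4 in Fasted 1, 15.5 against 52.9 in Fasted 2, 74.0 against 78.8 in WT 2 and 67.2 against 79.9 in Ern1-LKO 2. WT 1 went the other way, with 82.6 against 60.7, from 9 genes.

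**Figure D2:**
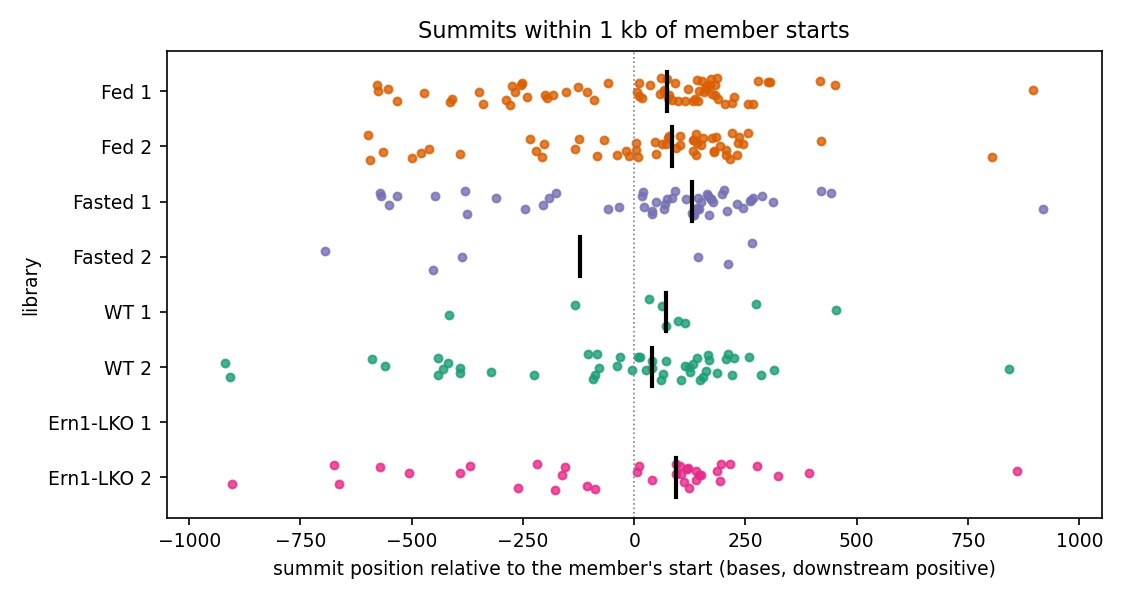
Summit position relative to the start of each mitochondrial ribosomal protein gene (x axis, bases, downstream positive), one row per library and one point per gene with a summit within 1 kb, with black bars for the medians. Medians lie between 41 and 130 bases downstream in the 6 libraries other than Fasted 2 (-121.5 bases, upstream, 6 genes) and Ern1-LKO 1 (no point).

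The starts of these genes were more often CpG-rich than those of all genes. In the 300-base windows from 250 bases before to 50 bases after each start, genes were called CpG-rich where GC content was at least 50% and the observed to expected CpG ratio at least 0.6. By that rule 55 of the 69 mitochondrial ribosomal protein genes (79.7%) were CpG-rich, against 48.3% of all genes with a start. Of all 8452 CpG-rich genes, 96.3% and 91.9% had a start peak in the Fed libraries, 92.6% and 49.4% in the Fasted libraries, 21.5% and 88.3% in the WT libraries and 5.41% and 81.3% in the Ern1-LKO libraries. For the 55 CpG-rich mitochondrial ribosomal protein genes the shares were 100% and 76.4% (Fed), 76.4% and 10.9% (Fasted), 14.5% and 69.1% (WT), and 0% and 52.7% (Ern1-LKO). Set beside CpG-rich genes, the mitochondrial ribosomal protein genes were thus above in Fed 1 and below in the other 7 libraries, with differences from -5.41 to -38.5 percentage points. Of the 14 members without a CpG-rich start, 13 and 12 had a start peak in the Fed libraries, 11 and 0 in the Fasted, 1 and 10 in the WT and 0 and 8 in the Ern1-LKO libraries. Within the family, the share was thus higher without a CpG-rich start than with one in Fed 2 (85.7% against 76.4%), Fasted 1 (78.6% against 76.4%), WT 2 (71.4% against 69.1%) and Ern1-LKO 2 (57.1% against 52.7%), and lower in Fed 1, Fasted 2 and WT 1. Over all genes without a CpG-rich start, the share ran from 0.420% in Ern1-LKO 1 to 33.6% in Fed 1. The part of base composition in these counts was not tested further, and no test over genes was run on the shares.

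**Figure D3:**
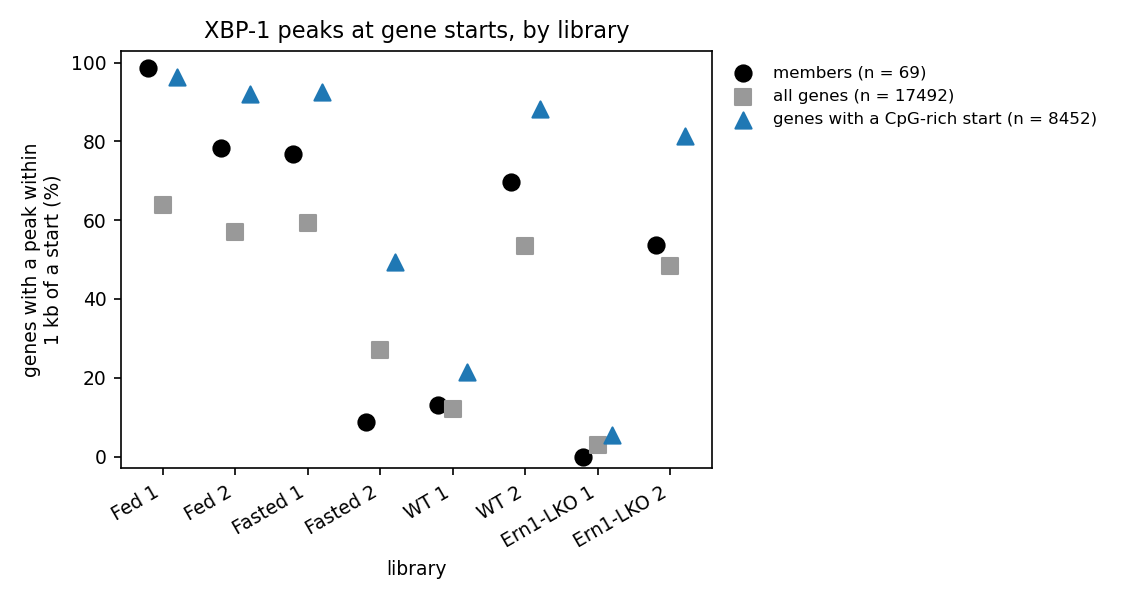
Percentage of genes with an XBP-1 summit within 1 kb of a start (y axis) in each library (x axis), for the 69 mitochondrial ribosomal protein genes (black circles), all 17492 genes with a start (grey squares) and the 8452 genes with a CpG-rich start (blue triangles). Black circles lie above the grey squares in 6 libraries and below the blue triangles in every library but Fed 1.

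Members of this family often share their promoter with a neighbour. Another gene's start lay within 1 kb on the opposite strand, pointing away, for 24 of the 69 genes (34.8%), against 8.48% of all genes. The only such pair within the family was Mrpl46 and Mrps11, whose gene spans are 42 bases apart on chromosome 7. Other partners included Fau (with Mrpl49), which encodes a cytosolic ribosomal protein, Twnk (with Mrpl43), which encodes the mitochondrial DNA helicase, Ndufb5 (with Mrpl47), a subunit of respiratory complex I, and Sars2 (with Mrps12), the mitochondrial seryl-tRNA synthetase. A peak between such starts cannot be assigned to either gene. The start peaks were not limited to these pairs. Of the 24 head-to-head members, 24 and 16 had one in the Fed libraries, 17 and 3 in the Fasted, 2 and 17 in the WT and 0 and 13 in the Ern1-LKO libraries. Of the other 45, 44 and 38, 36 and 3, 7 and 31, and 0 and 24 had one. As shares, these were 97.8% and 84.4%, 80% and 6.67%, 15.6% and 68.9%, and 0% and 53.3%. The shares over all genes with a start, paired or not, are those given above. No share over unpaired genes alone is given here. Over all 1483 head-to-head genes the shares were 95.5% and 85.5% (Fed), 86.9% and 31.8% (Fasted), 23.3% and 83.3% (WT), and 3.84% and 69.9% (Ern1-LKO). The head-to-head members had 100% and 66.7%, 70.8% and 12.5%, 8.33% and 70.8%, and 0% and 54.2%, a smaller share in every library but Fed 1.

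The promoters of 5 members are shown because they span the range of what was seen. The Mrps24 start had a peak in 7 libraries. The Mrpl36 start had one in 6, and its window holds the letters CCACGT. The Mrpl10 window contains the summits of 3 libraries and was chosen after its values were seen. The Mrps18b start had the highest start fold among the members. Mrpl35 had no peak anywhere although its window holds CCACGT. Each line is a RefSeq window of build GRCm38.p6 (300 bases, 250 before to 50 after the start, 5′ to 3′ on the gene's strand), and capitals mark the letters of the motifs searched, on either strand, other than GGGCGG.
Mrps24, chr11:5707652-5707951, minus strand: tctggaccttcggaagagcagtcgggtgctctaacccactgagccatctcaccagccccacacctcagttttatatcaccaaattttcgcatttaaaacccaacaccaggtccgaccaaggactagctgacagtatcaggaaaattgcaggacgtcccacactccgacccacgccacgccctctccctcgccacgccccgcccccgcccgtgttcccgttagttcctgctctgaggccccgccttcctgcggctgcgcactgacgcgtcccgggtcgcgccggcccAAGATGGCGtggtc
Mrpl36, chr13:73330759-73331058, plus strand: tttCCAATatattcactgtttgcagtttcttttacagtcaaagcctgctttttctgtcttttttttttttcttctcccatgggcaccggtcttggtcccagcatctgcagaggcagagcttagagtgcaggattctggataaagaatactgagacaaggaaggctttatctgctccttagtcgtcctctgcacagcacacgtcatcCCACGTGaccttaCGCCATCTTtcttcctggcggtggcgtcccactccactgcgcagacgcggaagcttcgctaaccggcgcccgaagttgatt
Mrpl10, chr11:97041332-97041631, plus strand: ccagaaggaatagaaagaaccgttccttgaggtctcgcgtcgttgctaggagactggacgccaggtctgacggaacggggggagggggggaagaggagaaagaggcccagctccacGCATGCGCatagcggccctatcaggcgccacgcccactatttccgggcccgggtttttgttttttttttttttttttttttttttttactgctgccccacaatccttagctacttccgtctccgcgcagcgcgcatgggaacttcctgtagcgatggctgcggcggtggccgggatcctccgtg
Mrps18b, chr17:35916391-35916690, minus strand: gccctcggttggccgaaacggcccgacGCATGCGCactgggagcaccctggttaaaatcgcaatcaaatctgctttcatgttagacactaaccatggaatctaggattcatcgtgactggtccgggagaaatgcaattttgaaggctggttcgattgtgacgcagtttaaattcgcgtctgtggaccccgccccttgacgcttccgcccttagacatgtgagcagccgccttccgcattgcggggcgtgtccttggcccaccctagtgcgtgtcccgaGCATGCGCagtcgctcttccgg
Mrpl35, chr6:71823735-71824034, minus strand: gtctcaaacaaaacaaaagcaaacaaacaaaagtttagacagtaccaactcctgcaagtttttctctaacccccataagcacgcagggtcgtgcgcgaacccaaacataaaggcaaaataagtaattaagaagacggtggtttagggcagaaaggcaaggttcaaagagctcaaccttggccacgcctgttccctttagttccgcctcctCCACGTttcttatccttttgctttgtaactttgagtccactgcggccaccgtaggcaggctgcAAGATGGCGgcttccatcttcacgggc

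In the Mrps24 and Mrpl35 windows the capitals near the 3′ end are AAGATGGCG, a YY1 motif, at positions 36 to 44 and 23 to 31 downstream of the start (the start base is position 0). In the Mrpl36 window they are CCAAT at -247 to -243, CCACGT overlapping the E-box CACGTG from -44 to -38, and AAGATGGCG on the opposite strand at -31 to -23. The capitals in the Mrpl10 window are GCATGCGC, the core letters of the NRF1 motif, at -134 to -127. The Mrps18b window holds GCATGCGC at both -223 to -216 and 28 to 35. In Mrpl35, CCACGT lies at -40 to -35. The start summits of Mrps24, Mrpl36 and Mrps18b lay beyond these windows, at the distances given below. A match is a description of letters in these windows and not a measured binding site.

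Over the 75 windows of the 69 mitochondrial ribosomal protein genes, motifs of XBP-1 were not more frequent than over all 21263 windows. The windows end before the members' median start summit in Fed 1, Fed 2, Fasted 1, WT 1 and Ern1-LKO 2. Those medians lay 74.5, 86, 130, 72 and 95 bases downstream of the start. In WT 2 and Fasted 2 the medians, 41 and -121.5 bases, lay within the windows. The shares below thus describe the windows, and whether the bound sites hold these motifs was not tested. CCACGT occurred in 5 windows (6.67%), against 9.06% of all windows, and those were the windows of Mrpl20, Mrpl35, Mrpl36, Mrpl43 and Mrps2. TGACGTGG was found in 0 windows (0.705% of all), as were the ERSE (CCAAT, 9 bases and CCACG, 0.141% of all) and ERSE-II (ATTGG, 1 base and CCACG, 0.0517% of all). The cyclic AMP response element TGACGTCA, which basic leucine zipper factors bind, occurred in 2.67% against 2.23%, and the E-box CACGTG in 9.33% against 7.84%. The 7 member windows with CACGTG include 3 overlapping windows of Mrpl2 that hold the same site, so that site was counted 3 times. Among CpG-rich windows only, the members' shares of these motifs were all lower: CCACGT in 3.39% against 12.9%, TGACGTCA in 3.39% against 3.74% and CACGTG in 8.47% against 11.6%, so the order of the last 2 turned. Motifs of factors known for nuclear genes of mitochondrial proteins had higher shares: CCGGAAGT (ETS family, which includes the nuclear respiratory factor GABP) in 16% against 5.15%, GCATGCGC (NRF1) in 10.7% against 3.52% and AAGATGGCG (YY1) in 10.7% against 1.83%. Among CpG-rich windows, the shares of these 3 motifs were 13.6% against 9.07%, 11.9% against 6.45% and 8.47% against 3.47%. CCAAT (40% against 38.2%) and GGGCGG (52.0% against 46.2%) differed less, and among CpG-rich windows GGGCGG was less frequent in this family, with 59.3% against 76.8%. CCACGT overlaps the E-box, and both strands were searched throughout.

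Mrps28, a small subunit protein gene on chromosome 3 (8802146 to 8923857), carried the peak with the highest fold of the family in each of the 8 libraries. Its folds were 32.7 and 51.0 in the Fed libraries, 27 and 21.3 in the Fasted libraries, 28 and 56.4 in the WT libraries and 11.2 and 42.6 in the Ern1-LKO libraries. These peaks ranked 79 and 60, 108 and 36, 50 and 31, and 45 and 34 in their lists. The 8 summits fell between positions 8923510 and 8923601, 256 to 347 bases inside the upper end of the gene. The site was thus occupied in both libraries of each group, including the shortest list, and the folds of WT and Ern1-LKO overlapped. Both Fed folds were above both Fasted folds, but folds of lists called separately are not a measured change. No start of Mrps28 was listed, so the strand-aware position is not given. The window of Tpd52, the neighbouring gene, includes the same peak.

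Mrps27, which encodes a pentatricopeptide repeat protein of the small subunit, was the only other member with a peak in Ern1-LKO 1. Its strongest peak lay inside the gene (chromosome 13, 99344767 to 99415562), with summits between 99353302 and 99353356, from 8516 to 8570 bases downstream of its start. Whether that position is exonic or intronic is not given by the table used here. The folds were 28.1 and 20.7 in the Fed libraries, 19.6 in Fasted 1, 17.1 and 22.4 in the WT libraries and 6.57 and 16.6 in the Ern1-LKO libraries, with no peak in Fasted 2. A second, weaker peak lay near the head-to-head starts of Mrps27 and Ptcd2, with summits 92 to 207 bases upstream of the Mrps27 start, in Fed 1, Fed 2, Fasted 1, WT 2 and Ern1-LKO 2, with folds of 6.84, 10.8, 12.1, 13.3 and 10.9. The gene-body site was found in both WT and both Ern1-LKO libraries, whereas the start site was absent from the shorter list of each.

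Mrps18b, one of the 3 paralogs of the bacterial protein S18 in the family, had the highest fold that any member showed at a start (Fed 2). Its folds were 20.2 and 26.7 (Fed), 14.2 (Fasted 1), 10.7 and 20.3 (WT) and 10.8 (Ern1-LKO 2), and Fasted 2 and Ern1-LKO 1 had no peak. Summits lay 376 to 417 bases upstream of the Mrps18b start and 339 to 380 bases from the start of Ppp1r10, its head-to-head neighbour, so they fall beyond the window printed above. The other paralogs had weaker peaks at their starts. Mrps18a had folds of 6.55, 7.26, 8.68, 3.66 and 5.94 in Fed 1, Fed 2, Fasted 1, WT 2 and Ern1-LKO 2. Mrps18c, which shares its promoter with Helq, had 6.30 and 8.84 (Fed), 9.59 and 4.33 (Fasted), 7.84 (WT 2) and 6.45 (Ern1-LKO 2).

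Mrps24, whose product lies in the head of the small subunit, had a peak at its own start in 7 libraries, and the nearest other listed start, that of Urgcp, lay at least 33580 bases from the summits. The folds were 8.06 and 8.82 in the Fed libraries, 14.2 and 4.66 in the Fasted libraries, 4.29 and 17.5 in the WT libraries and 14.3 in Ern1-LKO 2. Summits lay 105 to 219 bases downstream of the start. The peaks in Fasted 2 and WT 1 ranked low, at percentiles 27.2 and 15.3 of their lists, against 86.7 to 97.6 in the other 5 libraries.

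The remaining small subunit genes in the leading set were Mrps6, Mrps7 and Mrps35. At Mrps6 the folds were 7.03 and 8.46 (Fed), 15 and 9.63 (Fasted), 8.99 (WT 2) and 8.89 (Ern1-LKO 2) at the start it shares with Slc5a3, a myo-inositol transporter gene, while the WT 1 peak (4.44) lay 18662 bases downstream. At Mrps7 the strongest peak lay towards the Gga3 start in Fed 1, Fed 2, Fasted 1 and WT 2, with folds of 4.99, 8.60, 12 and 11.7. In Fasted 2 the strongest peak of the Mrps7 window (8.29) lay 3249 bases upstream, and in Ern1-LKO 2 (15.3) it lay at the Mif4gd start, but both lists also held a peak at the Mrps7 start (3.34 and 7.70). At Mrps35 the folds were 4.90 and 7.32 (Fed), 10.9 and 13.7 (Fasted), 5.50 (WT 2) and 11.9 (Ern1-LKO 2), and the Fasted 2 summit lay 10570 bases from the near gene end where the others lay 127 to 189 bases from it. Both Fasted libraries called both of these Mrps35 sites. The strongest peak of Mrps7 and of Mrps35 thus changed place between libraries whose lists also shared a site.

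Among the large subunit genes, Mrpl23, Mrpl36 and Mrpl57 had start peaks in the same 6 libraries, those other than Fasted 2 and Ern1-LKO 1. Mrpl23, whose product borders the exit tunnel, had folds of 8.63 and 11.9 (Fed), 10.3 (Fasted 1), 10.9 and 17.2 (WT) and 13.8 (Ern1-LKO 2), with summits 216 to 284 bases downstream of its start. Mrpl36, a small protein of the large subunit, had 8.16 and 9.75 (Fed), 8.38 (Fasted 1), 5.65 and 11 (WT) and 9.15 (Ern1-LKO 2), with summits 67 to 140 bases downstream. Mrpl57, which is head to head with Ska3, had 8.16 and 9.70, 8.42, 6.46 and 11.3, and 7.23 in the same order. Mrpl10 had 4.26 and 6.99 (Fed), 5.52 (Fasted 1), 9.10 and 9.93 (WT) and 17.3 (Ern1-LKO 2), the highest start fold of the family in Ern1-LKO 2, with summits 20 to 104 bases downstream.

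Mrpl54, for which no start was listed, had its peak 47 to 107 bases from a gene end in those 6 libraries, with folds of 10.6 and 15.2 (Fed), 10.7 (Fasted 1), 9.16 and 13.8 (WT) and 11.3 (Ern1-LKO 2). The windows of Matk and Apba3 include it. Mrpl48, a protein of the central protuberance with several listed starts, had 6.97 and 9.47 (Fed), 10.3 and 4.10 (Fasted), 7.42 and 7.35 (WT) and 9.67 (Ern1-LKO 2). Its strongest peak lay at an internal start in Fed 1 and WT 1, 17338 and 17341 bases inside the gene, and near the start it shares with Rab6a in the other 5 libraries. Mrpl14, which is head to head with Tmem63b, had 6.46 and 10.8 (Fed), 13.9 and 7.63 (Fasted), 10.2 (WT 2) and 11.7 (Ern1-LKO 2), and in Fasted 2 the summit lay 9478 bases downstream of the start.

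For Mrpl12 and Mrpl52 the strongest peak in the window often belonged to a neighbour. Mrpl12, a protein of the ribosomal stalk that has also been described as binding the mitochondrial RNA polymerase, had folds of 5.99 and 8.22 (Fed), 14.5 and 4.21 (Fasted), 3.58 and 14.1 (WT) and 9.74 (Ern1-LKO 2). In Fed 1, both Fasted libraries and Ern1-LKO 2 that summit lay 231 to 326 bases from the start of Slc25a10, the mitochondrial dicarboxylate carrier gene. At the Mrpl12 start itself the folds were 4.80, 8.22, 12.6, 3.58, 14.1 and 6.09 in Fed 1, Fed 2, Fasted 1, WT 1, WT 2 and Ern1-LKO 2. Mrpl52 had folds of 9.58 and 9.88 (Fed), 20.9 and 8.56 (Fasted), 11.4 (WT 2) and 20.01 (Ern1-LKO 2), each 264 to 370 bases from the start of Mmp14, a membrane metalloproteinase gene. The WT 1 peak of Mrpl52 (3.07) lay 132 bases upstream of its own start. A region at that start was called in 6 libraries, Fed 1, Fed 2, Fasted 1, WT 1, WT 2 and Ern1-LKO 2. The highest fold there was 9.40.

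**Figure D4:**
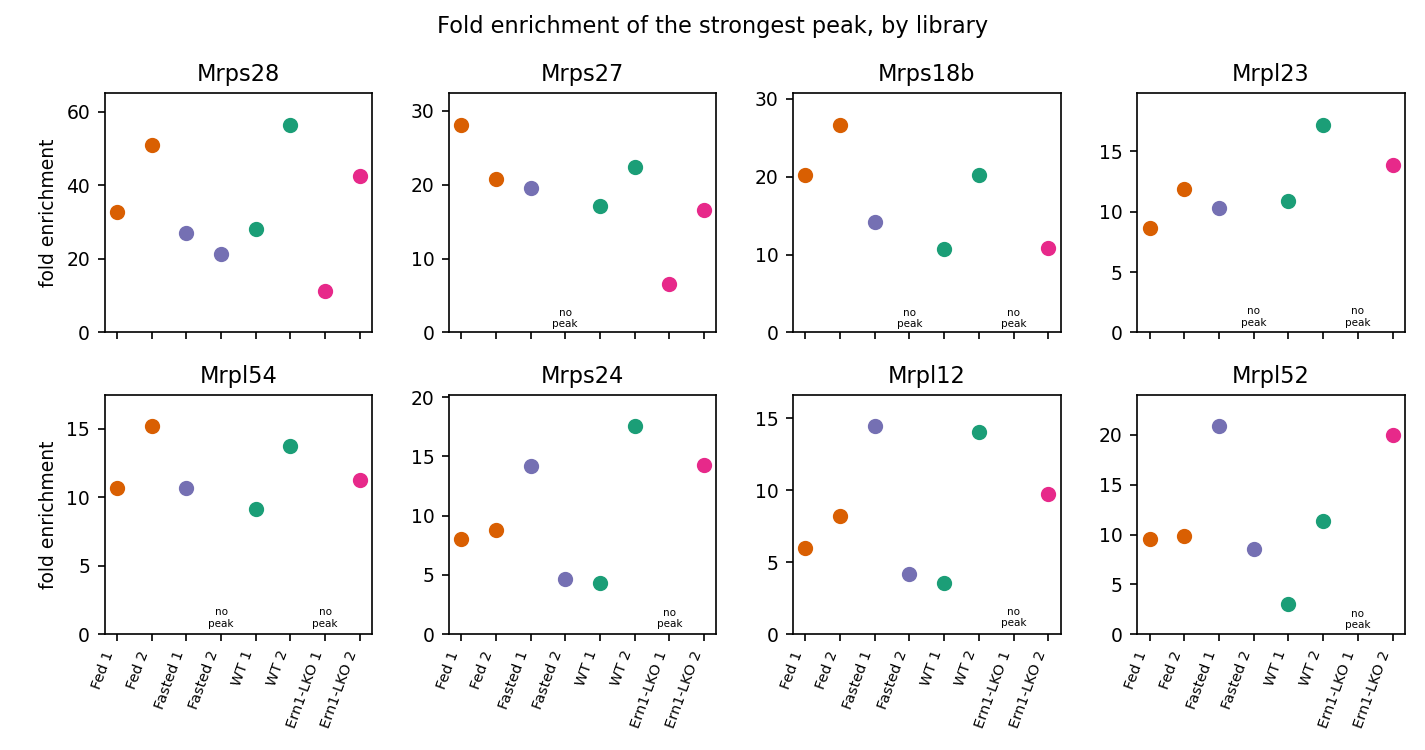
Authors' fold enrichment (y axis, from 0, with a separate scale in each panel) of the strongest peak at 8 mitochondrial ribosomal protein genes in the 8 libraries (x axis, coloured by group). Mrps28 has a point in every library, between 11.2 and 56.4, Mrps27 lacks one in Fasted 2, and the other 6 genes lack one in Ern1-LKO 1.

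The first comparison, fed against fasted wild-type liver, asks whether XBP-1 occupancy of these genes moves with feeding. The mean number of genes with a peak was 72 ± 7.07 (SD, n = 2) in the Fed and 43.5 ± 33.2 (SD, n = 2) in the Fasted libraries, a difference of 28.5 with p = 0.667 by a two-sided exact permutation test, which cannot go below 0.333 with 2 libraries against 2. Fed 2 and Fasted 1, whose lists were of like length, each had 67 genes, and without Fasted 2 the difference was 5. Among the 19237 highest ranked peaks of each list, the length of the shortest, the counts were 70 and 57 in the Fed and 55 and 20 in the Fasted libraries, with shares of 58.9%, 56.9%, 57.7% and 43.8% over all genes. That difference was 26 with p = 0.333 by the same exact test, the smallest it allows, and 8.5 without Fasted 2.

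Both Fed libraries had a peak at 67 members (85.9%, against 69.1% of all genes) and both Fasted libraries at 20 (25.6%, against 43.4%). Only Mrpl1 and Mrpl11 had a peak in both Fed libraries and neither Fasted library (2.56%, against 1.2% of all genes). The opposite pattern was found for 0 members (0.0735% of all genes). Mrpl11, a protein of the stalk base, had the same site in both libraries, 144 and 151 bases downstream of its start, with folds of 7.34 and 5.08. Mrpl1, which forms another stalk of the large subunit, had no shared site: its strongest peak lay at -553 bases from a start in Fed 1 (fold 5.57) and 38048 bases downstream in Fed 2 (fold 6.87). All 20 genes with a peak in Fasted 2 also had one in Fasted 1.

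The second comparison asks whether occupancy moves with the loss, in Ern1-LKO liver, of the enzyme that splices Xbp1. The mean number of genes with a peak was 36.5 ± 31.8 (SD, n = 2) in the WT and 26.5 ± 34.6 (SD, n = 2) in the Ern1-LKO libraries, a difference of 10 with p = 0.667 by a two-sided exact permutation test (smallest possible 0.333). The spread within each group exceeded the difference, and its sign turned when 1 library was left out: WT was lower by 12.5 genes (difference -12.5) without WT 2 and by 14.5 (difference -14.5) without Ern1-LKO 1. WT 2 and Ern1-LKO 2, of like list length, had 59 and 51 genes. Among the 698 highest ranked peaks of each list the counts were 7 and 3 in the WT and 2 and 2 in the Ern1-LKO libraries, against 3.56%, 4.03%, 3.6% and 3.85% of all genes. That difference of 3 had p = 0.333 by the exact test.

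Both WT libraries had a peak at 14 members (17.9%, against 18.3% of all genes). Both Ern1-LKO libraries had one at 2, Mrps28 and Mrps27 (2.56%, against 3.56% of all genes). Only Mrpl58 had a peak in both WT libraries and neither Ern1-LKO library (1.28%, against 0.9% of all genes). The opposite pattern was found for 0 members (0% of all genes). Mrpl58 encodes a peptidyl-tRNA hydrolase built into the large subunit. Its WT peaks, with folds of 8.47 and 9.0, lay 733 and 853 bases beyond the gene's end and 6512 and 6392 bases from the start of Atp5h. The same region was called in Fed 1, Fed 2 and Fasted 1. In WT 2 a weaker peak (4.22) also lay 210 bases downstream of the Mrpl58 start.

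Several members of special interest for mitochondrial translation had start peaks in the longer lists only. Mrpl44, which carries a ribonuclease III-like domain, had folds of 4.51 and 6.90 (Fed), 6.32 (Fasted 1) and 4.50 (WT 2). Mrpl45, which ties the ribosome to the inner membrane, had 3.08 and 7.20 (Fed), 3.59 (Fasted 1) and 5.19 (WT 2). Mrpl37 had 5.04 and 7.64 (Fed) and 7.08 (Fasted 1) at the start it shares with Cyb5rl, and no peak in the WT or Ern1-LKO lists. Mrpl33 had 6.15 and 5.79, 10.8, 5.95 and 9.65, and Mrps30, counted with the large subunit, had 5.11 and 9.91, 9.60, 11.4 and 8.83, in the Fed libraries, Fasted 1, WT 2 and Ern1-LKO 2. Mrps12, the decoding centre protein, had its strongest peak at 3 sites: near the Sars2 start in Fed 1 (3.0), inside the gene in Fed 2 and Fasted 1 (8.28 and 8.66) and 4869 bases upstream in Ern1-LKO 2 (6.57). Mrps36, whose product is now placed with the 2-oxoglutarate dehydrogenase complex and not with the ribosome, had 5.12 and 7.52, 11.2, 5.0 and 5.79 in the same 5 libraries as Mrpl33.

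The members were also counted by subunit. Of the 50 large subunit genes, 49 and 41 had a peak in the Fed libraries, 41 and 12 in the Fasted, 9 and 38 in the WT and 0 and 31 in the Ern1-LKO libraries. Of the 27 small subunit genes, 27 and 25, 25 and 8, 5 and 20, and 2 and 19 had one. As shares, these were 98% and 82%, 82% and 24%, 18% and 76%, and 0% and 62% of the large subunit genes, and 100% and 92.6%, 92.6% and 29.6%, 18.5% and 74.1%, and 7.41% and 70.4% of the small subunit genes. The share of the small subunit was the higher one in every library but WT 2, and the difference was not tested. Over all genes, the shares given at the start of the results were below both subunits in Fed 1, Fed 2, Fasted 1 and WT 2 and above both in Fasted 2 and WT 1. Genes were sorted by symbol except for Mrps30, so Mrps18a stands with the small subunit although its product sits in the large one. Of the 48 genes with a bacterial counterpart, 47 and 40, 40 and 13, 8 and 34, and 1 and 31 had a peak, and of the 29 mitochondria-specific genes, 29 and 26, 26 and 7, 6 and 24, and 1 and 19. As shares, the former were 97.9% and 83.3%, 83.3% and 27.1%, 16.7% and 70.8%, and 2.08% and 64.6%. The latter were 100% and 89.7%, 89.7% and 24.1%, 20.7% and 82.8%, and 3.45% and 65.5%. Mitochondria-specific genes had the higher share in every library but Fasted 2, and the difference was not tested. Genes for 78 cytosolic ribosomal proteins had 78 and 70, 72 and 22, 19 and 70, and 2 and 60, equal to or above the mitochondrial family in every library.

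Other genes of the pathway were counted in the same way. The all-gene shares were 76.5% and 71.5% (Fed), 73.4% and 43.8% (Fasted), 19.7% and 65.3% (WT), and 3.6% and 62.7% (Ern1-LKO). The 5 mitoribosomal proteins with other symbols had 5 and 4 peaks in the Fed, 4 and 3 in the Fasted, 2 and 4 in the WT and 0 and 3 in the Ern1-LKO libraries. Dap3 and Gadd45gip1 had a peak in 7 libraries and Ptcd3 in 1. All 11 translation factor genes, such as Tufm (elongation factor Tu), Gfm1 (elongation factor G1) and Mtif2 (initiation factor), had a peak in Fed 1, Fed 2 and Fasted 1, and 3 did in Fasted 2, 1 in WT 1, 10 in WT 2, 0 in Ern1-LKO 1 and 7 in Ern1-LKO 2. Of the 21 assembly factor genes, 20 and 19 had a peak in the Fed, 19 and 5 in the Fasted, 1 and 15 in the WT and 0 and 12 in the Ern1-LKO libraries, with none for Fastkd2 in any list. As shares, these were 95.2% and 90.5%, 90.5% and 23.8%, 4.76% and 71.4%, and 0% and 57.1%. The 13 genes of mitochondrial transcription and its regulators had 13 and 13, 13 and 8, 7 and 13, and 2 and 13. Their median length of 27204 bases, against 17217 for all genes, gave them a longer window in which to hold a peak. In that group Ppargc1b, a transcriptional coactivator, had a peak in all 8 libraries with folds from 3.71 to 12.9, and Nrf1 had one in 7 with folds from 5.83 to 16.4. Tfam, the mitochondrial DNA packaging factor, had peaks in 5 libraries with folds from 4.17 to 11.1.

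Agreement between the 2 libraries of a group was read from the peaks themselves. The peaks of the 78 genes merged into 246 regions, of which 1 was called in 8 libraries, 2 in 7, 22 in 6, 39 in 5 and 115 in a single library. Of the peaks in the shorter Fed list at these genes, 106 of 126 overlapped a peak of the longer list by at least 1 base, and the corresponding counts were 25 of 26 for Fasted, 12 of 17 for WT and 2 of 2 for Ern1-LKO. Read from the longer list, these were 51.2%, 19.7%, 12% and 2.60% of its peaks. The rule's edge at 5 kb fell between summits such as one at 4967 bases from Mrpl14 in Fed 1 (fold 3.46), which counted, and one at 5010 bases from Mrps12 in Fasted 1 (fold 6.15), which did not.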

How the data were processed

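Peaks of XBP-1 chromatin immunoprecipitation were taken from 8 of the 12 deposited lists, 1 per library, and the 4 lists of pooled libraries served as an alternative. Per the submitters' processing notes, the tools were MACS2 2.2.1 for peaks, Bowtie2 2.2.5, FastQC 0.11.3 and bcl2fastq. The file headers instead name MACS 2.1.1.20160309, with a q cutoff of 0.05 and 1 tag kept per position. Each deposited list holds, per the file headers, 4 values computed by the authors for each peak: the −log10 of its q-value, the −log10 of its p-value, the fold enrichment as a ratio over local background, and the pileup signal at its summit. No reads were used here. The pileup signal was not tested.

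Peaks were ranked within a list by −log10 q, and summits were joined to RefSeq gene spans (5 kb either side) and to RefSeq starts (1 kb either side) with Python 3.11.15, pandas 2.3.3 and numpy 2.4.6. Genes listed below 3 Mb of an assembled autosome or chromosome X were left out, because the table places genes of unplaced scaffolds there. Library counts were compared with exact two-sided permutation tests (scipy 1.17.1). In a run on simulated data, 2000 of 2000 peaks planted in gene windows and 1000 of 1000 planted at starts were recovered. Named genes were the 15 with a peak in most libraries, those in the shortest list, those bound in every library of 1 group but in none of its comparison group (at most 10 per direction), those without a peak, and a set of members with known roles. The members, lists and named genes were chosen with earlier results of these data known. Alternatives were other windows, stricter q limits, pooled lists, overlap limits and leaving out each library. The choice of CpG-rich limits was made after seeing the data.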

Additional observations from a re-analysis of the deposited data

How the results depend on the processing

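List length limits these results, since a count within a library depends on how many peaks were called there, and so does the number of libraries, 2 per group. Of 32 alternative values of the differences between groups, 29 kept their direction, though not always their size, 2 reversed and 1 fell to 0 (WT minus Ern1-LKO among top peaks, at −log10 q of at least 10). The 29 include the values with the replicate number as a block, which could not move, since a block changes only the p-value. Of 68 alternative counts of genes, 45 stayed within 1.5 times the value reported and 23 did not. Leaving out 1 library moved the Fed minus Fasted difference from 5 to 52 genes (8.5 to 43.5 among the same number of top peaks) and the WT minus Ern1-LKO difference from -14.5 to 34.5 (1 to 5 among top peaks), reversed at -12.5 without WT 2 and -14.5 without Ern1-LKO 1. It moved the genes with a peak in both libraries from 67 to 77 (Fed), 20 to 67 (Fasted), 14 to 59 (WT) and 2 to 51 (Ern1-LKO). The Fed-only genes went from 2 to 47, WT-only from 1 to 12, Ern1-LKO-only from 0 to 2, and genes in all libraries from 1 to 6, since fewer lists then had to hold a peak. Leaving out both Fasted 2 and Ern1-LKO 1, chosen after seeing the data, gave 13 genes in all remaining libraries. With the pooled lists, 62 genes had a Fasted peak, 47 a WT peak and 26 an Ern1-LKO peak, and 15 were Fed only, 22 WT only and 1 Ern1-LKO only. With a window of 1 kb, 12 genes had a peak in both Fasted libraries. At starts alone, 6 genes had one in both Fasted, 9 in both WT, 0 in both Ern1-LKO and 0 in all libraries, and 0 were WT only. The matching shares of all genes are not given for these alternative counts. The counts therefore do not show a pattern particular to this family. The labels do not say what the shared replicate numbers mean. Across all genes, the deviations of same-numbered libraries had a correlation of 0.696 for WT and Ern1-LKO and 0.0974 for Fed and Fasted. Across the mitochondrial ribosomal protein genes the correlations were 0.562 and -0.491. With the replicate number as a block, the differences of 28.5, 26, 10 and 3 genes had p = 0.5 each by the exact permutation test, the smallest that 2 pairs allow, and no call changed. The sign of the difference from CpG-rich genes held in each library under stricter limits (GC of at least 55%, CpG ratio of at least 0.65) and in a window of 500 bases, both chosen after seeing the data.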
